A study of Mus musculus with 36 samples.

Results

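Tissue-resident alveolar macrophages (TR-AΦ) of mice breathing concentrated PM2.5, particulate matter of small diameter drawn from outdoor air, were compared between 32-weeks and 4-weeks of exposure. The comparison used 3 libraries at each time point, 6 of the 36 libraries of the series, each from a different mouse. It covered every gene with a mean of at least 1 FPKM (fragments scaled to transcript length and to the number of mapped fragments) over these 6 libraries, which were 12582 of the 27562 genes in the table. The mice were male lung-shielded chimeras. C57BL/6J hosts carrying CD45.2 were lethally irradiated as young adults with the chest under lead, received busulfan, and were transplanted with marrow of CD45.1 donors of the B6.SJL-Ptprc a Pepc b/BoyJ line. Exposure was by inhalation in VACES chambers, which concentrate outdoor particles, and the filtered air (FA) mice were chimeras of the same kind in the same chamber system. TR-AΦ were the CD45.2+ cells sorted as CD64+CD11c hi CD11b lo from enzymatically dissociated lungs. No gene was deleted in any group. The 32-weeks mice had been exposed for longer and were older at harvest, so length of exposure, age and anything else that differed between the time points cannot be told apart within PM2.5.

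TR-AΦ are seeded before and around birth, live in the airspace, clear surfactant lipid and inhaled particles, and renew themselves largely without input from blood monocytes. When they meet microbial products or damage they switch on NF-kappa B, a family of transcription factors held in the cytoplasm by inhibitor proteins. NF-kappa B drives cytokines such as TNF, the chemokines that call in neutrophils and T cells, and also its own inhibitors, which end the response. Immediate early genes of the EGR and AP-1 families respond within minutes to many stimuli, cell handling among them.

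The 6 libraries were similar in summed FPKM but not in the number of genes detected. FPKM summed to between 1991475 and 2297942 at 4-weeks and between 2086795 and 2320503 at 32-weeks. Genes that reached 1 FPKM numbered 11990 to 12407 at 4-weeks and 11795 to 11881 at 32-weeks. Genes listed at 0 numbered 9318 to 11334 at 4-weeks and 11813 to 12234 at 32-weeks. Every 4-weeks library thus detected more genes than every 32-weeks library, and the part of this in the results was not tested. No counts were analysed here, so the sequencing depth behind each value is unknown. Markers of the sorted AΦ identity were present at both time points. The summed level of 14 AΦ markers was 6770, 7490 and 8160 FPKM at 4-weeks and 8010, 10800 and 12700 FPKM at 32-weeks. Much of each sum was Chil3 alone, at 3636, 4491 and 4537 FPKM at 4-weeks and 3978, 7219 and 7540 FPKM at 32-weeks. None of the 14 was at 0 in all libraries of a group. Siglecf, the sialic acid receptor that defines mouse AΦ, was 116, 91.9 and 116 FPKM at 4-weeks and 154, 115 and 157 FPKM at 32-weeks, and its difference did not pass the test (adjusted p = 0.391). The summed level of 9 neutrophil markers was 12, 15.3 and 68.2 FPKM at 4-weeks and 15.5, 21 and 23.1 FPKM at 32-weeks, with Camp, Ly6g and Ngp listed at 0 in all 6 libraries, and the monocyte gene Ly6c2 was above 0 in 1 library of each group, at 4.78 and 1.82 FPKM.

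A single 4-weeks library stood apart. The summed level of 10 interstitial macrophage markers was 133, 95.8 and 718 FPKM at 4-weeks and 44.2, 31.8 and 56.0 FPKM at 32-weeks. Every 4-weeks sum was above every 32-weeks sum, and the highest was that of 4-weeks replicate 2. The same library had the highest sums of monocyte markers (94.0 FPKM, against 15.8 to 26.0 in the other 5 libraries) of B cell markers (93.3 FPKM, against 3.0 to 21.9), of neutrophil markers (68.2 FPKM, against 12 to 23.1), of dendritic cell markers (23.7 FPKM, against 2.46 to 4.86) and of T and NK cell markers (9.68 FPKM, against at most 5.16). It also had 425 FPKM of the heat shock chaperone Hspa1a (3.20 to 21.7 in the other 5) and 805 FPKM of the cytokine Il1b (14.4 to 97.5). Values without this library are given beside several results in which it was far above the others. Other results may also depend on this library, and its part in them is not always given. In sorted bulk samples, fewer cells of a type and less RNA per cell cannot be told apart.

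At 32-weeks 147 of the 12582 genes passed limma's moderated test at an adjusted p under 0.05 (1.17%), 39 higher (0.31%) and 108 lower (0.858%). The median log2 fold change of all genes tested was 0.04, of the genes that rose 0.84 and of the genes that fell -1.61. The genes that fell were led by inflammatory mediators and their regulators (Cxcl10, Cxcl1, Tnf, Il23a, Nfkbiz) and by Egr1 and Ereg, and the genes that rose from above 0 in every 4-weeks library by both chains of a basement membrane collagen (Col4a1, Col4a2). Of the 147 genes, 36 are predicted or clone-named models, 4 were listed at 0 in every 4-weeks library and 5 in every 32-weeks library, which leaves 138 genes above 0 at both time points (35 higher, 103 lower). The test pooled the spread of all 18 AΦ libraries. With the spread taken from the 6 compared libraries alone 18 genes passed, 14 of them among the 147, and Tnf, Cxcl10, Cxcl2, Egr1, Il23a, Nfkbia, Hmox1 and Proz were among those that still fell. Leaving out 1 library moved the count to 62, 72 or 62 without 32-weeks replicate 0, 1 or 2, and to 276, 71 or 89 without 4-weeks replicate 0, 1 or 2. An exact two-sided permutation test of 3 against 3 libraries cannot give a p below 0.1 for any single gene.

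Tnf, the central cytokine of macrophage activation (mm10 chromosome 17, 35199381 to 35202007), was 531, 476 and 659 FPKM at 4-weeks and 64, 55.2 and 64.8 FPKM at 32-weeks. The groups were far apart, and the 3 values at 32-weeks lay close together. Its log2 fold change was -3.15 ± 0.21 (SE, n = 3 and 3, adjusted p = 1.98e-06), and -3.02 without 4-weeks replicate 2. This SE and those of later TR-AΦ fold changes use the spread pooled over the 18 AΦ libraries, not that of the 6 compared libraries alone. Il23a, a subunit of interleukin 23, was 6.84, 9.53 and 12.6 FPKM at 4-weeks and was listed at 0, 0 and 0.139 FPKM at 32-weeks (log2 fold change -3.31 ± 0.42, adjusted p = 0.00106). Lif, a cytokine of the interleukin 6 family, fell by 1.27 on the log2 scale (adjusted p = 0.0236), a call that was lost without any 1 library other than 4-weeks replicate 0 (log2 fold change -1.37 to -1.16, adjusted p 0.055 to 0.1). Of 13 macrophage cytokines tested, these 3 fell and none rose, against 0.858% of all genes tested that fell. The list median was -1.27. Il1b was 54.3, 97.5 and 805 FPKM at 4-weeks and 14.4, 15.0 and 26.5 FPKM at 32-weeks. The groups did not overlap, but the difference did not pass (log2 fold change -3.11 ± 1.09, adjusted p = 0.182; -1.96 without 4-weeks replicate 2).

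Among the chemokines, 3 of the CXC family fell. Cxcl10, which draws T cells through CXCR3 (chromosome 5, 92346638 to 92348889), was 102, 100.3 and 77.7 FPKM at 4-weeks and 1.03, 0 and 1.87 FPKM at 32-weeks (log2 fold change -5.70 ± 0.54, adjusted p = 0.000112). It had the most negative log2 fold change of the genes that passed. Cxcl1, a neutrophil attractant (chromosome 5, 90891241 to 90893115), was 120, 133 and 255 FPKM at 4-weeks and 4.27, 12.1 and 12 FPKM at 32-weeks (-4.06 ± 0.61, adjusted p = 0.0041, and -3.725 without 4-weeks replicate 2). Cxcl2, its neighbour with the same receptor (chromosome 5, 90903871 to 90905938), was 623, 637 and 1008 FPKM at 4-weeks and 102, 131 and 99.0 FPKM at 32-weeks (-2.73 ± 0.43, adjusted p = 0.00595). The lowest 4-weeks value of each was several times its highest 32-weeks value. Of 9 CXC chemokines tested, these 3 fell and none rose, against 0.858% of all genes tested that fell. The list median was -1.63, or -1.11 without 4-weeks replicate 2. Cxcl9, like Cxcl10 a CXCR3 ligand, lay at 0.870, 1.89 and 1.92 FPKM against 0.800, 1.81 and 2.47 FPKM, and the groups overlapped. None of 11 CC chemokines passed (list median -0.86). Ccl2, the attractant of CCR2+ monocytes, was 2.2, 4.93 and 49.1 FPKM at 4-weeks against 4.16, 0.809 and 3.20 FPKM at 32-weeks (adjusted p = 0.398; log2 fold change -0.36 without 4-weeks replicate 2).

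**Figure D1:**
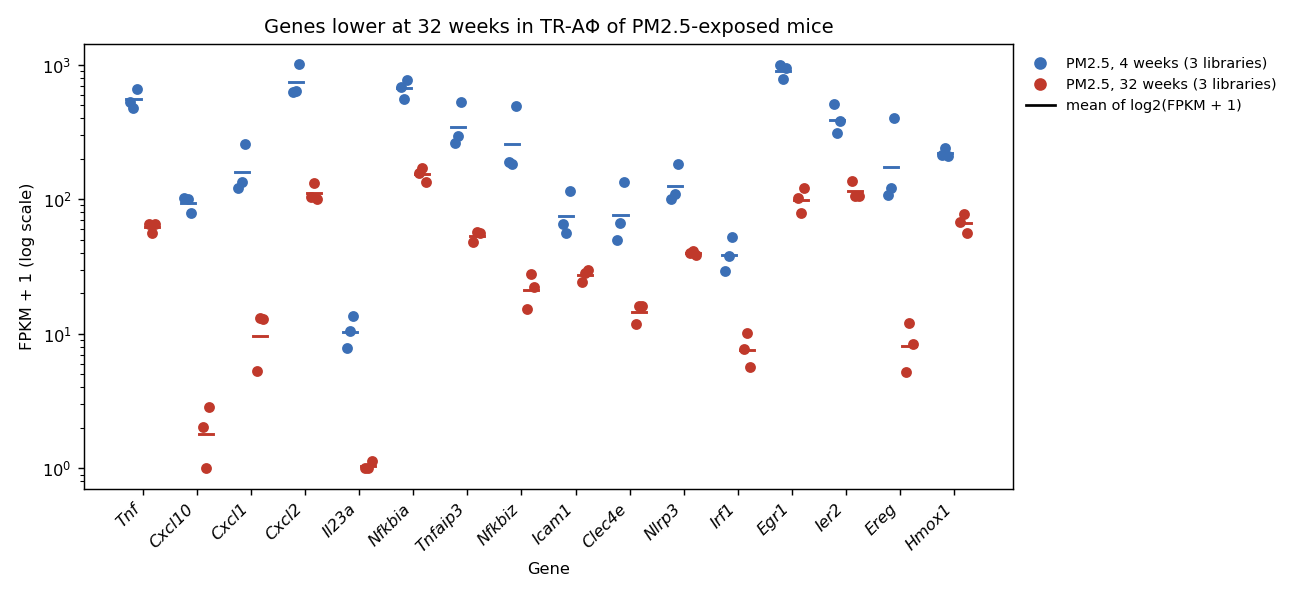
FPKM + 1 on a log axis for 16 genes that were lower at 32-weeks, one point per library, with blue for 4-weeks and red for 32-weeks and a line at the mean of log2(FPKM + 1). All 16 pairs of groups are separate, and Cxcl10 and Il23a reach 0 FPKM (1 on this axis) at 32-weeks.

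The promoters of 4 of these genes are shown because each carries the kappa B consensus, the recognition sequence of NF-kappa B, in the 250 bases before its RefSeq start. That start lies 28 bases downstream of the GENCODE start given above for Cxcl2 and 4 bases for Cxcl1, and on it for Cxcl10 and Nfkbia. They are the RefSeq entries of GRCm38.p6 (the same assembly as mm10), 5′ to 3′ on the strand of the gene, at chr5:92348890-92349139 (minus strand) for Cxcl10, chr5:90890995-90891244 (plus) for Cxcl1, chr5:90903649-90903898 (plus) for Cxcl2 and chr12:55492648-55492897 (minus) for Nfkbia, the main NF-kappa B inhibitor. Capitals mark matches to the kappa B consensus on either strand and, in Cxcl10, the first capital run is a match to the interferon-stimulated response element (TTTC, 2 free bases and TTTC) on the opposite strand.
Cxcl10: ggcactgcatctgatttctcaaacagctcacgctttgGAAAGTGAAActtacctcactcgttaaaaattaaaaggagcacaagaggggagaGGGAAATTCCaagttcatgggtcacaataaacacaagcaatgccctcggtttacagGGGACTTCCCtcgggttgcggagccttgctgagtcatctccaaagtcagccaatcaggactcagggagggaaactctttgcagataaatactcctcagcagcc
Cxcl1: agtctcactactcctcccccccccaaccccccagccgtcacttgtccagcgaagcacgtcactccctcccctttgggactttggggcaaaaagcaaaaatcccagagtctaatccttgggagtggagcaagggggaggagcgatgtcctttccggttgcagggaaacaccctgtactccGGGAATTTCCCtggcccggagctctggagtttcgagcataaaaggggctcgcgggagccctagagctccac
Cxcl2: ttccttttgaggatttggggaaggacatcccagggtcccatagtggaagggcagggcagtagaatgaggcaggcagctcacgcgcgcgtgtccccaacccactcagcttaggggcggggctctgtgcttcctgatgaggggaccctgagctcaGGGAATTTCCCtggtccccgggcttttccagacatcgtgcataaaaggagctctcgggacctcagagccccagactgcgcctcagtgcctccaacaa
Nfkbia: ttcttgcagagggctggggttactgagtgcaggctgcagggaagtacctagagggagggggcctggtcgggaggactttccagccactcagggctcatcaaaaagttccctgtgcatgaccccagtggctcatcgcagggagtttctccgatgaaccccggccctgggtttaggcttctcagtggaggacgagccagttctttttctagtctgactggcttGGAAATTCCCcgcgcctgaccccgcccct
The kappa B matches of Cxcl10 begin 159 and 103 bases before the start, those of Cxcl1 and Cxcl2 (each matched on both strands, 1 base apart) 71 and 97 bases before it, and that of Nfkbia 29 bases before it. No kappa B match overlapped the interferon-stimulated element. The consensus was found in 422 of 7855 tested genes with a promoter entry (5.37%), in 13 of 61 such genes that fell (21.3%) and in 2 of 30 that rose (6.67%). These shares describe letters in a window and were not tested, and Tnf had no match in its window.

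Regulators and targets of NF-kappa B held more falling genes than any other list examined. Of 30 members tested 11 fell and none rose, against 0.858% of all genes tested that fell. Below 0 lay 29 of the 30 log2 fold changes, with a median of -1.16, or -0.82 without 4-weeks replicate 2. In 21 of the 30 every 32-weeks value was below every 4-weeks value, where 8.59% of all genes tested were. Nfkbia, which encodes the inhibitor I kappa B alpha (chromosome 12, 55489410 to 55492647), was 687, 557 and 769 FPKM at 4-weeks and 156, 171 and 134 FPKM at 32-weeks (log2 fold change -2.12 ± 0.21, adjusted p = 0.00016). Tnfaip3, which encodes the ubiquitin-editing enzyme A20 that restrains the pathway, was 261, 293 and 524 FPKM at 4-weeks and 47.5, 56.1 and 55.1 FPKM at 32-weeks (-2.67 ± 0.34, adjusted p = 0.00114). Nfkbiz, an atypical nuclear I kappa B that permits a secondary set of targets, was 188, 183 and 492 FPKM at 4-weeks and 14.4, 27.1 and 21.4 FPKM at 32-weeks (-3.60 ± 0.46, adjusted p = 0.00124). For all 3 genes the time points were separate, and the highest value was that of 4-weeks replicate 2, without which the log2 fold changes were -2.01, -2.37 and -3.13 and still passed.

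The other NF-kappa B members that fell were Ccrl2, a chemerin-binding receptor (-2.63), Clec4e, the lectin Mincle that senses mycobacterial and fungal glycolipids (-2.41), Icam1, the adhesion ligand of leukocyte integrins (-1.45), Nfkbie (-1.21), Nfkb2 (-1.10), Sod2, the mitochondrial superoxide dismutase (-1.10), Nfkbib (-1.08) and Nfkb1 (-0.66), all values log2 fold changes. Nfkbib and Nfkbie are further inhibitors, and Nfkb1 and Nfkb2 are subunits. Nfkb1, Nfkb2, Nfkbib, Nfkbie and Icam1 lie outside the naming rule and were chosen after their values were seen. Clec4e was 49.2, 65.6 and 135 FPKM at 4-weeks and 10.8, 15.1 and 15.0 FPKM at 32-weeks, and Rela, the main activating subunit, did not pass. Without 4-weeks replicate 2 the log2 fold changes of Clec4e and Icam1 were -1.998 and -1.149, and both still passed. The number of members that fell was 6 without 4-weeks replicate 2, 15 without 4-weeks replicate 0, 6, 7 or 7 without 32-weeks replicate 0, 1 or 2, and 1 (Nfkbia) with the spread of the 6 libraries alone. Without 32-weeks replicate 0 the adjusted p of Nfkb1, Nfkbie and Sod2 was 0.116, 0.139 and 0.0723, and without 32-weeks replicate 2 that of Nfkb2 and Nfkbib was 0.14 and 0.123.

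Receptors of microbial products fell in 2 cases among 23 Toll-like receptors and cytosolic sensors tested, where 0.858% of all genes tested fell. Nlrp3, the sensor of the inflammasome that matures interleukin 1 beta, was 99.4, 108 and 180 FPKM at 4-weeks and 38.8, 40.2 and 37.7 FPKM at 32-weeks (-1.66 ± 0.19, adjusted p = 0.000484, and -1.394 without 4-weeks replicate 2). Nod2, a sensor of bacterial cell wall fragments, was 4.85, 5.30 and 11.0 FPKM at 4-weeks and 2.22, 1.51 and 1.89 FPKM at 32-weeks (-1.42 ± 0.29, adjusted p = 0.0324). The call for Nlrp3 held with every library left out in turn, and that for Nod2 was lost without any 1 library other than 4-weeks replicate 0 (-1.55 to -1.09, adjusted p 0.0674 to 0.104).

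Among interferon-induced genes, 1 of 24 fell and none rose, where 0.858% of all genes tested fell, and the list median was -0.03. The gene that fell was Irf1, a transcription factor induced by interferon gamma and by NF-kappa B, at 28.3, 36.7 and 51.6 FPKM at 4-weeks and 6.72, 9.13 and 4.64 FPKM at 32-weeks (-2.35 ± 0.22, adjusted p = 0.000102). Isg15, a ubiquitin-like protein that marks the type I interferon response, was 2.08, 2.74 and 3.71 FPKM at 4-weeks against 0.788, 3.20 and 0.319 FPKM at 32-weeks, and the groups overlapped (adjusted p = 0.399).

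Of 27 AP-1 and immediate early genes 4 fell and none rose, where 0.858% of all genes tested fell. The list median was -0.58, or -0.32 without 4-weeks replicate 2. Egr1, a zinc finger transcription factor, was 986, 787 and 946 FPKM at 4-weeks and 101, 78.4 and 119 FPKM at 32-weeks (-3.19 ± 0.48, adjusted p = 0.00418). Egr3, of the same family, was 18.1, 11.0 and 19.5 FPKM at 4-weeks and 2.31, 0.674 and 1.46 FPKM at 32-weeks (-2.81 ± 0.47, adjusted p = 0.00907; adjusted p = 0.0533 and log2 fold change -2.55 without 32-weeks replicate 1). Ier2, an immediate early nuclear protein, was 510, 307 and 378 FPKM against 137, 104 and 104 FPKM (-1.77 ± 0.23, adjusted p = 0.00144), and Gadd45b, a stress sensor upstream of p38, fell by 2.09 on the log2 scale (adjusted p = 0.00611). In each of these 4 genes every 4-weeks value exceeded every 32-weeks value. Fos, the canonical member of AP-1, did not follow them. It was 486, 387 and 449 FPKM at 4-weeks and 595, 518 and 518 FPKM at 32-weeks, with all 3 later values above the earlier ones and a difference that did not pass (0.31 ± 0.36, adjusted p = 0.728). Jun, its partner, was 661, 508 and 822 FPKM at 4-weeks and 300, 234 and 117 FPKM at 32-weeks and did not pass either (-1.68 ± 0.54, adjusted p = 0.148), and it was chosen after its values were seen.

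Other genes that fell included a pair of EGF receptor ligands and single regulators. Ereg, which encodes epiregulin, a ligand of the EGF receptor, was 107, 120 and 399 FPKM at 4-weeks and 4.19, 11.1 and 7.39 FPKM at 32-weeks (-4.43 ± 0.61, adjusted p = 0.00229; -3.82 without 4-weeks replicate 2). Areg, the neighbouring gene for the related ligand amphiregulin, was 34.9, 36.7 and 55.1 FPKM against 5.22, 7.85 and 11.6 FPKM (-2.26 ± 0.40, adjusted p = 0.0126) and was chosen after its values were seen. The call for Areg was lost without any 1 of 3 libraries, 4-weeks replicate 2 and 32-weeks replicates 0 and 1 (adjusted p 0.05004 to 0.0685). Both ligands lay on chromosome 5, Ereg at 91074622 to 91093646 and Areg at 91139599 to 91148432. Marcksl1, a membrane-associated actin regulator, was 25.2, 15.9 and 70.7 FPKM against 2.88, 2.42 and 2.75 FPKM (-3.10 ± 0.49, adjusted p = 0.00595; -2.515 without 4-weeks replicate 2). Id3, an inhibitor of helix-loop-helix factors and 1 of 24 macrophage transcription factors tested, was 5.91, 8.90 and 10.8 FPKM against 1.56, 0.325 and 0.423 FPKM (-2.46 ± 0.37, adjusted p = 0.00465), and no other gene of that list passed. Bcl2l11, the pro-apoptotic protein BIM, was 69.5, 109 and 174 FPKM against 29.5, 27.0 and 37.6 FPKM (-1.79 ± 0.27, adjusted p = 0.00465, and -1.458 without 4-weeks replicate 2), the only one of 25 apoptosis regulators to pass. The share of all genes tested that fell was 0.858%. Skil, a repressor of TGF-beta signalling, fell by 1.03 on the log2 scale (adjusted p = 0.0163), a call that was lost without any 1 of 4 of the 6 libraries (adjusted p 0.0543 to 0.0677).

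Proz, a vitamin K-dependent plasma protein of the coagulation system (chromosome 8, 13060914 to 13076026), was 11.1, 15.8 and 8.60 FPKM at 4-weeks and 0.349, 0.428 and 0.734 FPKM at 32-weeks (-3.06 ± 0.31, adjusted p = 0.00016). The gene before it on the same strand is F10, coagulation factor X (13037308 to 13056676). F10 was 67.7, 58.3 and 61.1 FPKM against 29.1, 36.5 and 27.3 FPKM (-0.995 ± 0.16, adjusted p = 0.00595) and was chosen after its values were seen. Both genes were thus lower at 32-weeks without overlap.

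Antioxidant and stress genes did not all move one way. Hmox1, the haem oxygenase that frees iron and yields carbon monoxide and biliverdin, was 212, 240 and 209 FPKM at 4-weeks and 66.8, 76.2 and 55.5 FPKM at 32-weeks (-1.73 ± 0.23, adjusted p = 0.00149). Sqstm1, the autophagy receptor p62 and an NRF2 target, was 330, 338 and 400 FPKM against 220, 214 and 182 FPKM (-0.79 ± 0.15, adjusted p = 0.021), a call that was lost without any 1 of 3 libraries, 4-weeks replicate 2 and 32-weeks replicates 1 and 2 (adjusted p 0.0533 to 0.0917). With Sod2 these were the 3 of 25 NRF2 targets and antioxidant enzymes that fell, where 0.858% of all genes tested fell. None rose, and the list median was 0.10. Other genes chosen after their values were seen also fell: Ppp1r15a, which encodes the phosphatase subunit GADD34 (-2.17, adjusted p = 0.00357), and Kdm6b, a histone H3 lysine 27 demethylase (-1.70, adjusted p = 0.00229). None of 20 heat shock chaperones passed. Their median was -0.89 with all libraries and -0.51 without 4-weeks replicate 2, and Hspa1a was 21.7, 14.4 and 425 FPKM at 4-weeks against 3.20, 8.30 and 3.29 FPKM at 32-weeks (adjusted p = 0.14; log2 fold change -1.76 without 4-weeks replicate 2). Mt1, a metal-binding protein induced by metals and oxidants, was 193, 253 and 263 FPKM against 181, 175 and 128 FPKM and did not pass (-0.55 ± 0.22, adjusted p = 0.231).

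**Figure D2:**
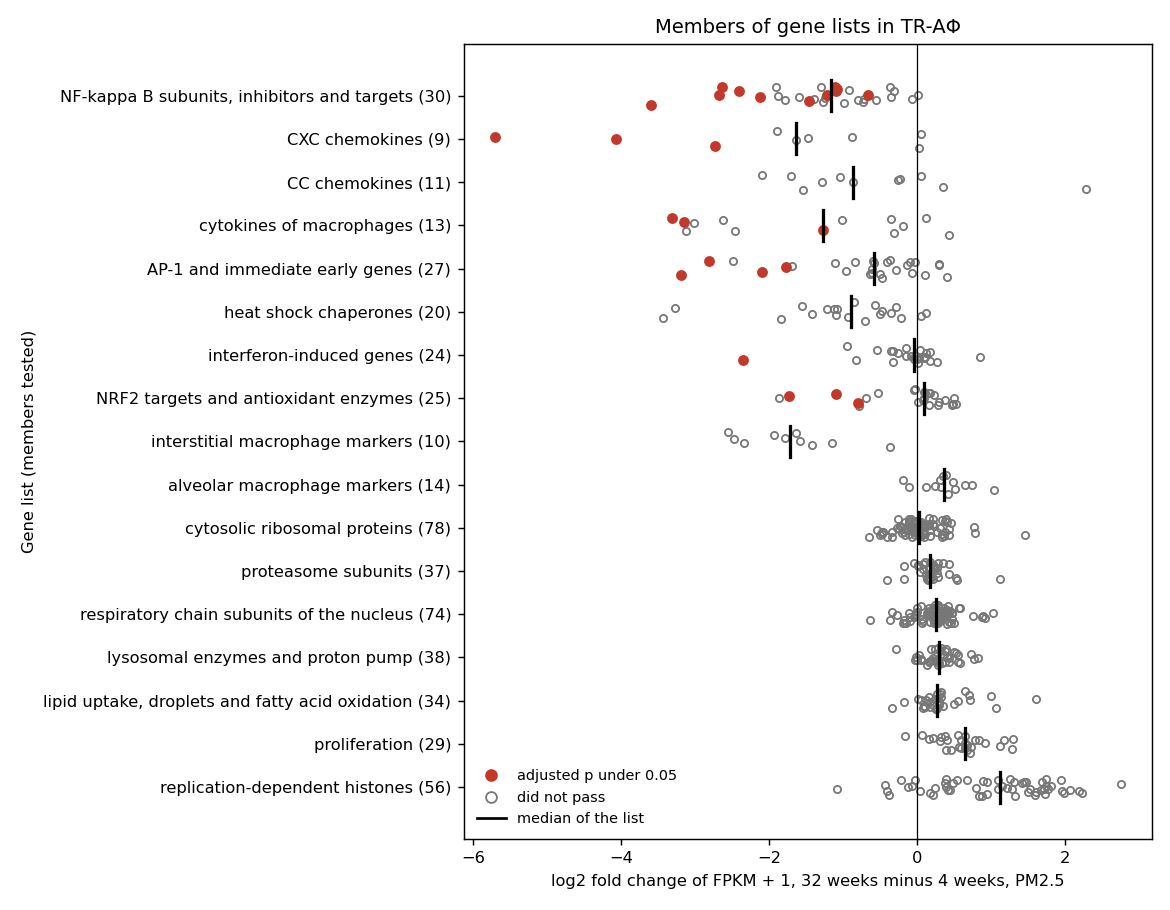
Log2 fold change of FPKM + 1 (32-weeks minus 4-weeks, PM2.5) of every tested member of 17 gene lists, with filled red points for members past an adjusted p of 0.05, open points for the others and a bar at the list median. Filled points occur in 6 lists and all lie below 0, and the AΦ markers, lysosomal, lipid, proliferation and histone lists have medians above 0 with no filled point.

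Fewer genes rose. Col4a1 and Col4a2 encode the 2 chains of the common type IV collagen of basement membranes and start 21 bases apart on opposite strands of chromosome 8 (11198423 to 11312826 and 11312805 to 11449287). Col4a1 was 0.469, 0.569 and 0.997 FPKM at 4-weeks and 5.04, 5.36 and 3.98 FPKM at 32-weeks (1.79 ± 0.21, adjusted p = 0.000665). Col4a2 was 0.827, 0.360 and 0.847 FPKM at 4-weeks and 6.24, 6.54 and 4.73 FPKM at 32-weeks (2.03 ± 0.23, adjusted p = 0.000422). Both chains were below 1 FPKM in every 4-weeks library and at or above 3.98 FPKM in every 32-weeks library, and both calls held with each library left out. They were the 2 of 19 matrix and metalloproteinase genes that rose, where 0.31% of all genes tested rose, and none fell. The summed level of 9 endothelial and stromal markers, cells that also make type IV collagen, was 7.11, 8.45 and 13.5 FPKM at 4-weeks and 7.85, 7.53 and 13.4 FPKM at 32-weeks, and none of the 3 tested members passed. Mmp12, the macrophage elastase, was 3.99, 5.63 and 17.5 FPKM against 6.23, 17.4 and 9.09 FPKM, with overlapping groups.

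Siglec1, the sialoadhesin CD169 of resident macrophages, was 93.8, 77.1 and 80.6 FPKM at 4-weeks and 152, 137 and 154 FPKM at 32-weeks (chromosome 2, 131069220 to 131086765; 0.81 ± 0.12, adjusted p = 0.00311). The groups were well apart, and the call held with each library left out. It was the only gene to rise among 19 inhibitory and CD200 family receptors, where 0.31% of all genes tested rose. Cd200 itself was 3.46, 1.57 and 2.02 FPKM against 4.74, 7.58 and 12.1 FPKM and did not pass (1.41 ± 0.56, adjusted p = 0.231). Srebf1, the transcription factor of fatty acid synthesis, was 25.1, 19.5 and 19.1 FPKM at 4-weeks and 39.0, 36.7 and 34.1 FPKM at 32-weeks (0.77 ± 0.15, adjusted p = 0.0226). It was the only one of 29 cholesterol and fatty acid synthesis genes to pass, the list median was -0.05, and its call was lost without any 1 library other than 4-weeks replicate 0 (adjusted p 0.055 to 0.0916).

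Further genes that rose lost their calls when any 1 of several libraries was left out. Bcam, a laminin-binding adhesion molecule, was 6.24, 3.78 and 4.78 FPKM at 4-weeks and 13.3, 9.60 and 11.4 FPKM at 32-weeks (1.08 ± 0.22, adjusted p = 0.0323). Cd209b, a C-type lectin of the DC-SIGN family, was 1.78, 0.508 and 2.35 FPKM against 6.94, 4.57 and 7.88 FPKM (1.6 ± 0.35, adjusted p = 0.0387). Mlph, melanophilin, a linker of vesicles to myosin, was 1.44, 0.597 and 0.879 FPKM against 3.92, 5.51 and 8.42 FPKM (1.79 ± 0.38, adjusted p = 0.0379). These 3 genes did not overlap between the time points. The calls of Bcam and Mlph were lost without any 1 library other than 4-weeks replicate 0 (adjusted p up to 0.128 and 0.148), and that of Cd209b without each library except 4-weeks replicates 0 and 2 (up to 0.14). Alppl2, Insl6, Ift27 and Ap5s1 also rose, with log2 fold changes of 1.68, 1.42, 1.17 and 1.17, and each lost its call in at least 3 of the 6 leave-outs, with an adjusted p of up to 0.0682 (without 32-weeks replicate 1), 0.115 (without 32-weeks replicate 0), 0.14 (without 32-weeks replicate 2) and 0.14 (without 4-weeks replicate 1).

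**Figure D3:**
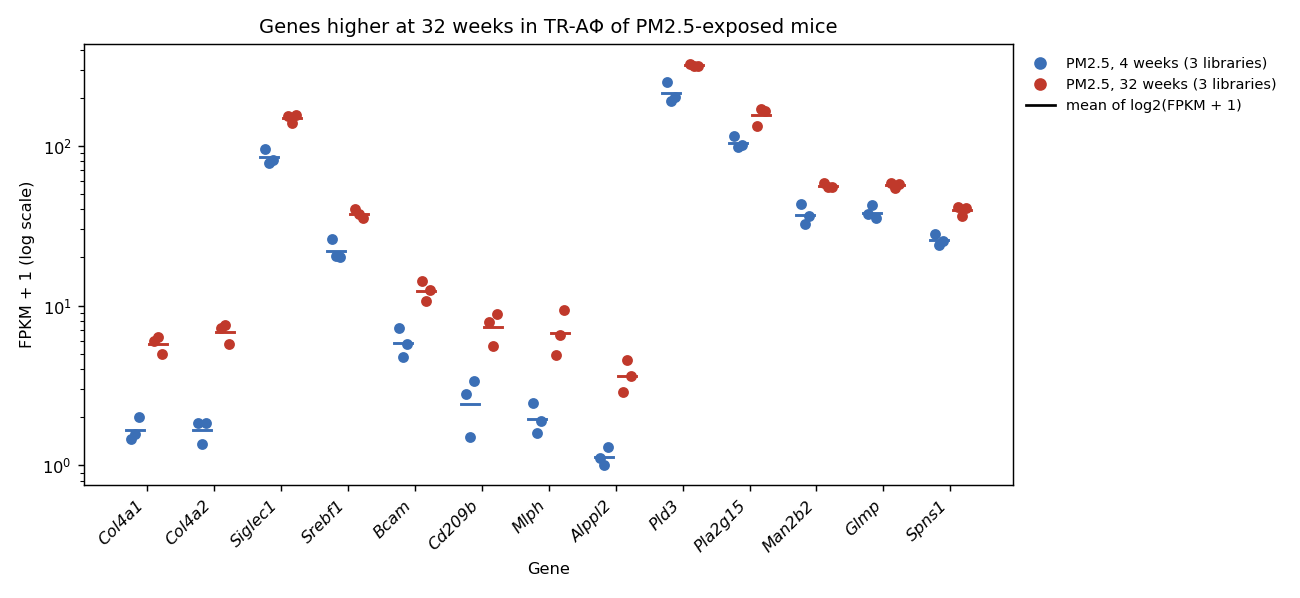
FPKM + 1 on a log axis for 13 genes that were higher at 32-weeks, one point per library, with blue for 4-weeks and red for 32-weeks and a line at the mean of log2(FPKM + 1). The groups of all 13 genes are separate; Col4a1, Col4a2 and Alppl2 start near 1 on this axis, and the 5 genes of lysosomal function on the right differ by less.

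No member of the lysosomal list passed. Of its 38 enzymes and proton pump subunits tested, 35 had log2 fold changes above 0 (median 0.29, against 0.04 for all genes, of which 6845 of 12582 lay above 0), and 17 of the 38 had every 32-weeks value above every 4-weeks value, where 10.1% of all genes tested did. Ctsd, the aspartic protease cathepsin D, was 1634, 1229 and 1597 FPKM at 4-weeks and 2208, 2553 and 2862 FPKM at 32-weeks (0.78 ± 0.24, adjusted p = 0.128), and Lipa, the lysosomal acid lipase, 172, 131 and 226 FPKM against 297, 249 and 394 FPKM (0.83 ± 0.28, adjusted p = 0.162); both were chosen after their values were seen. Of genes outside that list, 5 chosen in the same way passed. Pld3, a lysosomal exonuclease, was 250, 190 and 202 FPKM at 4-weeks and 324, 316 and 316 FPKM at 32-weeks (0.58, adjusted p = 0.0489), and Pla2g15, the lysosomal phospholipase that degrades surfactant phospholipid, was 115, 97.0 and 100 FPKM against 133, 169 and 163 FPKM (0.57, adjusted p = 0.0487). Man2b2, a lysosomal mannosidase, Glmp, a lysosomal membrane glycoprotein, and Spns1, a lysosomal lipid transporter, rose by 0.60, 0.57 and 0.62 on the log2 scale. Each of the 5 calls was lost in 4 or 5 of the 6 leave-outs, with adjusted p values of up to 0.131, 0.148, 0.0792, 0.108 and 0.13 in the order given, without 4-weeks replicate 1 for Pld3, 32-weeks replicate 0 for Man2b2 and 32-weeks replicate 2 for the other 3.

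Several other lists had no gene that passed and most of their values above 0, where 6845 of all 12582 genes tested lay. Of 34 genes of lipid uptake, droplets and fatty acid oxidation 32 lay above 0 (median 0.28), of 74 nuclear-encoded respiratory chain subunits 58 (median 0.26), and of 37 proteasome subunits 33 (median 0.18). Of 29 proliferation genes 28 lay above 0 (median 0.65) and 11 did not overlap between the time points, and the median was 0.39 without 32-weeks replicate 2. Of 56 replication-dependent histone genes 48 lay above 0 (median 1.13) and 14 were higher in every 32-weeks library, where 10.1% of all genes tested were. Mki67, a marker of cycling cells, was 7.68, 5.80 and 7.13 FPKM at 4-weeks and 6.57, 9.11 and 20.5 FPKM at 32-weeks, with overlapping groups and the highest value in 32-weeks replicate 2 (0.59 ± 0.37, adjusted p = 0.467; 0.16 without that library). Cdkn1a, the cell cycle inhibitor p21, was 185, 190 and 285 FPKM against 150, 143 and 127 FPKM (-0.62 ± 0.23, adjusted p = 0.2). The 78 ribosomal protein genes were even, with 40 above 0 and a median of 0.03.

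None of the 14 identity genes of AΦ passed, and 12 lay above 0 (median 0.37). Ear1, an eosinophil-associated ribonuclease made by AΦ, was 622, 514 and 671 FPKM at 4-weeks and 996, 798 and 1277 FPKM at 32-weeks (0.75 ± 0.25, adjusted p = 0.164), and Pparg, the nuclear receptor that AΦ need for lipid handling, was 76.0, 63.5 and 47.0 FPKM against 67.8, 89.4 and 74.5 FPKM (0.33 ± 0.18, adjusted p = 0.395). Ear1 did not overlap between the time points, and Pparg did. Car4, Chil3, Fabp4, Marco, Itgax and Fcgr1 had log2 fold changes of 0.12, 0.52, 0.65, 0.49, 0.32 and -0.11, none of which passed. All 10 interstitial macrophage markers lay below 0 (median -1.71, and -0.94 without 4-weeks replicate 2), and none passed. In 8 of the 10 every 32-weeks value was below every 4-weeks value, where 8.59% of all genes tested were. C1qa, a complement subunit abundant in interstitial macrophages, was 46.6, 19.1 and 197 FPKM at 4-weeks and 9.68, 8.0 and 14.1 FPKM at 32-weeks (-2.34 ± 0.82, adjusted p = 0.183; -1.45 without 4-weeks replicate 2). Cx3cr1 and Cd163 had the same form. Cx3cr1 was 4.33, 1.65 and 25.5 FPKM at 4-weeks and 0.502, 0.710 and 1.63 FPKM at 32-weeks. Cd163 was 2.83, 1.77 and 12.5 FPKM against 0.664, 0.457 and 1.23 FPKM. Their groups did not overlap, and their log2 fold changes were -0.99 and -0.89 without 4-weeks replicate 2. H2-Ab1, an MHC class II chain, was 552, 271 and 746 FPKM against 963, 670 and 565 FPKM, and none of 13 class II presentation genes passed. The haemoglobin gene Hbb-bs was 13.3, 23.5 and 0 FPKM at 4-weeks and 0, 0.775 and 29.8 FPKM at 32-weeks, with overlapping groups.

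The remaining lists held few genes that passed, where 0.31% of all genes tested rose and 0.858% fell. Hmox1 was also the only one of 14 genes of haem and iron handling to fall, and Skil the only one of 16 of TGF-beta and colony-stimulating factor signalling. No gene passed among 8 of the aryl hydrocarbon receptor and metal response (median -0.02), 22 of MHC class I presentation (0.15), 13 of the circadian clock (0.10), 8 glucocorticoid receptor targets (0.23), 20 CDK inhibitors and p53 targets (-0.12), 17 of cholesterol efflux and the liver X receptor (0.35), 24 of glycolysis and the hypoxia response (0.13), 22 scavenger and phagocytic receptors (0.14) and 14 complement components and receptors (-0.27). None of the tested markers of monocytes (6), neutrophils (5), red cells (4), B cells (2), T and NK cells (1), dendritic cells (3) or epithelium (4) passed. Both mitochondrially encoded genes of the table lay below the filter.

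Further transcripts passed as higher from 4-weeks values that included 0, and 4 of them ranked above the collagen chains. These were Rn7s1, Cdk8, n-R5s85 and the gene model Gm15198. Rn7s1, a 7S RNA of the signal recognition particle (chromosome 12, 69159295 to 69159594), was listed at 0 in all 4-weeks libraries and at 1083, 608 and 587 FPKM at 32-weeks. Over the series it was listed at 0 in all 18 libraries of 6 groups and was between 502 and 1168 FPKM in the other 18 libraries. Cdk8, a kinase of the Mediator complex that most cells express, was listed at 0 in all 3 PM2.5 libraries of 4-weeks and at 11.8, 10.6 and 11.4 FPKM at 32-weeks. It was listed at 0 in 2 whole groups (the other being BM-AΦ of FA mice at 32-weeks) and lay between 7.68 and 17.3 FPKM in the other 30 libraries. Both genes were chosen after their values were seen. No fold is given for either, since an exact 0 shared by a whole group can be a failed estimate. n-R5s85, a 5S ribosomal RNA gene with near-identical copies, was 0, 250 and 0 FPKM at 4-weeks and 1312, 686 and 714 FPKM at 32-weeks (7.10 ± 1.46, adjusted p = 0.0323), and its call was lost without any 1 library other than 4-weeks replicate 1 (5.77 to 7.26, adjusted p 0.0645 to 0.113).

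The FA mice of the same 2 time points give the background of time without particles, in 6 other libraries. FA 4-weeks replicate 2 had the higher Il1b, Hspa1a, C1qa and Cx3cr1 given above, and without it 148 genes passed under FA. In TR-AΦ of FA mice 102 genes passed (0.811%), 19 higher (0.151%) and 83 lower (0.66%), and the count was 53 without FA 32-weeks replicate 0 and 50 or 51 without FA 4-weeks replicate 0 or 1. Of the 147 genes that changed under PM2.5, 144 had the same sign under FA, where 8655 of all 12582 genes did, and 65 passed under FA too. Of the 108 genes that fell 107 had the same sign and 58 passed in both, and of the 39 that rose 37 and 7. The median log2 fold change of the genes that fell was -1.61 under PM2.5 and -1.32 under FA, and that of the genes that rose was 0.84 and 0.51. The genes were chosen on their PM2.5 values, which favours larger PM2.5 changes in this pair of medians.

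The single genes given here moved in the same direction in both exposures. Tnf was 580 ± 108 FPKM (SD, n = 3) at 4-weeks and 73.5 ± 22.6 FPKM at 32-weeks under FA (log2 fold change -2.99 ± 0.21, adjusted p = 6.05e-06). Cxcl10 was 165 ± 89.6 and 2.37 ± 1.28 FPKM (-5.50 ± 0.54, adjusted p = 0.000208), and Nfkbia was 683 ± 79.99 and 239 ± 62.2 FPKM (-1.54 ± 0.21, adjusted p = 0.0041). Each of these genes fell without particles as well. Col4a1 and Col4a2 rose under FA by 2.07 and 2.27 on the log2 scale (adjusted p = 0.000273 and 0.000208), and 12 of the 30 NF-kappa B members fell. Genes that passed under PM2.5 and not under FA included Srebf1 (0.39 under FA, adjusted p = 0.282), Id3 (-1.28, adjusted p = 0.152) and Mlph (0.62, adjusted p = 0.547). None of these 3 differed between the exposures when the difference was tested.

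**Figure D4:**
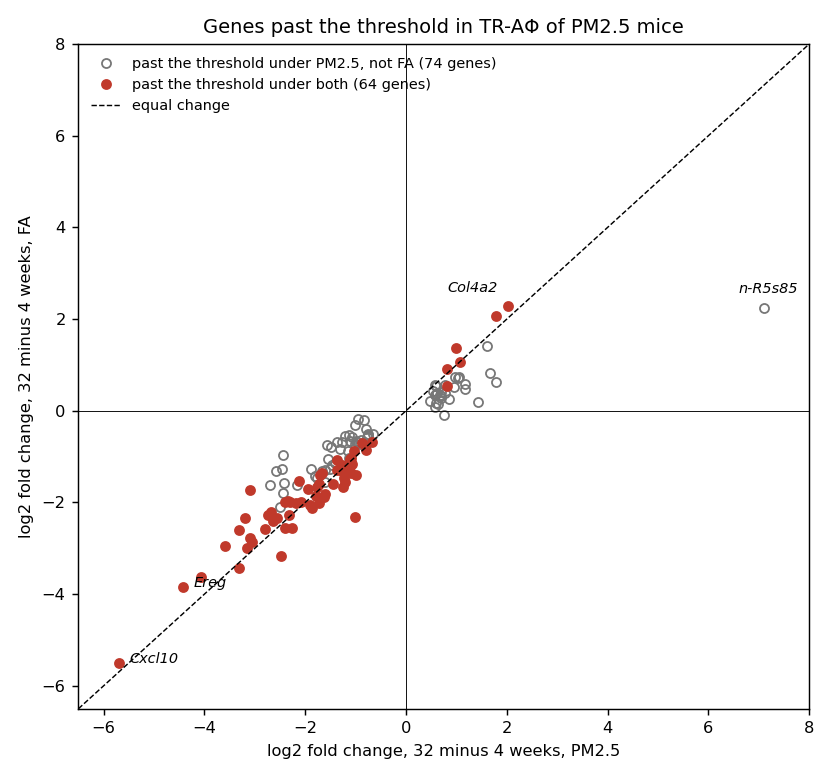
Log2 fold change from 4-weeks to 32-weeks in TR-AΦ of PM2.5 mice (x) and FA mice (y) for 138 of the 147 genes past the threshold under PM2.5, leaving out 9 with a PM2.5 group wholly at 0 FPKM, with 64 filled points where FA passed too, 74 open points and a dashed line of equal change. All but 1 point have the same sign on both axes, and n-R5s85 lies far right of the line.

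The difference between the exposures was tested as an interaction of exposure and time. Of 12582 genes 1 passed (0.00795%), while 388 were below 0.05 before adjustment of the p, where 0.05 of the genes tested is 629. That gene was Cdk8, through its zeros in the 4-weeks PM2.5 libraries, and the next lowest adjusted p was 0.78. Leaving out 1 of the 12 libraries gave between 1 and 4 genes, with 4 without PM2.5 4-weeks replicate 1. With 3 libraries a group, a difference between exposures was not shown for the inflammatory genes, which does not show that it was absent: for Tnf the interaction was -0.16 ± 0.30 and for Egr1 -0.85 ± 0.68.

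CD45.2 monocytes sorted from lungs of PM2.5 mice at the same time points were set beside the TR-AΦ. At 32-weeks the labels give monocytes 2 numbers, and number 2 was read as CD45.2 by the key given for the macrophages, so the origin of these cells rests on that reading. In the monocytes 794 of the same 12582 genes passed (6.31%), 509 higher (4.05%) and 285 lower (2.27%), and the count was 280 without 32-weeks monocyte replicate 1 and 376 without 4-weeks monocyte replicate 2. Of the 147 genes of the TR-AΦ comparison 120 had the same sign in monocytes and 50 passed in the same direction. Of all 12582 genes 7288 had the same sign, and 568 passed in monocytes in the direction of their TR-AΦ change. Tnf was 242 ± 128 FPKM at 4-weeks and 51.0 ± 13.1 FPKM at 32-weeks in monocytes (log2 fold change -2.13, adjusted p = 0.00029), Nlrp3 225 ± 22.1 and 61.0 ± 16.6 FPKM (-1.90, adjusted p = 4.42e-05), and Nfkbia 1309 ± 61.4 and 434 ± 117 FPKM (-1.63, adjusted p = 7.06e-05). All 3 inflammatory genes were thus lower at 32-weeks in both cell types. Of the 30 NF-kappa B members 14 fell in monocytes. Macrophage markers rose in the same monocyte libraries, 8 of 10 interstitial and 7 of 14 AΦ markers, with none lower. Ear1 was 0.774 ± 1.09 FPKM at 4-weeks and 37.2 ± 37.2 FPKM at 32-weeks in monocytes, and the part of this in the monocyte results was not tested. Proz, Hmox1 and Areg also fell, by 3.24, 1.36 and 2.17 on the log2 scale, and Siglec1 rose by 1.47.

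The interaction of cell type and time passed for 143 genes (1.14%), 29 of them with a more positive (0.23%) and 114 with a more negative (0.906%) change in TR-AΦ. The count fell to 42 without 32-weeks monocyte replicate 1, to 65 without 4-weeks monocyte replicate 2, and to 76, 62 or 91 without TR-AΦ 32-weeks replicate 0, 1 or 2. Among the 147 genes 24 passed. Ereg was 0.0887 ± 0.154 FPKM at 4-weeks and 0.0821 ± 0.142 FPKM at 32-weeks in monocytes. It was thus near 0 there at both time points, and the difference between the cell types only restates its fall in TR-AΦ. Egr1 was 546 ± 84.3 and 418 ± 165 FPKM in monocytes (interaction -2.75 ± 0.64, adjusted p = 0.0279), and Irf1 68.8 ± 17.4 and 47.2 ± 9.23 FPKM (-1.82 ± 0.37, adjusted p = 0.0124). Cxcl10 fell in both cell types, more in TR-AΦ (-3.75 ± 0.64, adjusted p = 0.00336). In the other direction, Col4a1 and Col4a2 were 1.40 ± 0.155 and 1.07 ± 0.542 FPKM at 4-weeks and 2.32 ± 1.18 and 1.46 ± 0.556 FPKM at 32-weeks in monocytes, below the 3.98 to 6.54 FPKM of TR-AΦ at 32-weeks (interactions 1.39 ± 0.31 and 1.77 ± 0.36, adjusted p = 0.0247 and 0.0115).

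**Figure D5:**
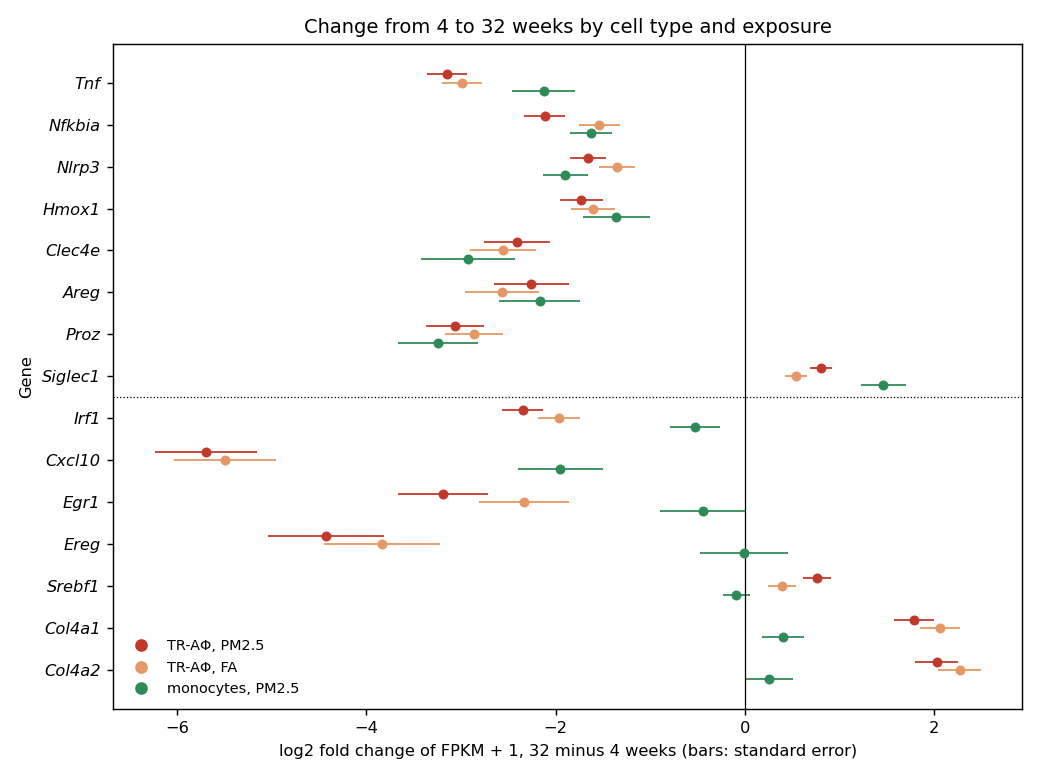
Log2 fold change of FPKM + 1 from 4-weeks to 32-weeks, with its standard error as a bar, for 15 genes in TR-AΦ of PM2.5 mice (red), TR-AΦ of FA mice (orange) and monocytes of PM2.5 mice (green). The 3 estimates of the 8 genes above the dotted line lie on the same side of 0, and below it the monocyte estimates lie nearer to 0 than both TR-AΦ estimates, as for Egr1. Ereg is at -0.01 in monocytes, where it was near 0 FPKM at both time points.

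BM-AΦ, the CD45.1 alveolar macrophages that donor marrow had supplied, were sequenced at 32-weeks and had no 4-weeks group here. Their levels under PM2.5 at 32-weeks lay near those of TR-AΦ of the same time point for the genes that fell: 54.5 ± 4.59 FPKM for Tnf, 2.82 ± 2.01 FPKM for Cxcl10, 171 ± 22.96 FPKM for Nfkbia and 131 ± 22.6 FPKM for Egr1 (n = 3). For the collagen chains they were 5.40 ± 1.41 FPKM for Col4a1 and 7.18 ± 2.60 FPKM for Col4a2. These values are given side by side and were not tested.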

How the data were processed

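The table analysed holds FPKM per gene for 36 libraries, which the authors deposited after trimming reads with TrimGalore, aligning them to mm10 with STAR and estimating FPKM against the GENCODE annotation with Cufflinks. FPKM are scaled to gene length and library size and keep no depth, so no count test or counting interval could be had.

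Libraries were grouped by the labels (3 per group). The study describes 3 mice a group, with AΦ and monocytes of both origins sorted from the same lungs, so the 36 libraries are not 36 mice and the fits that join cell types treat libraries of 1 mouse as independent. At 32-weeks the monocytes numbered 2 were read as CD45.2 by the key that the macrophage labels give. A gene was kept when its FPKM averaged 1 or more across the 6 compared libraries. limma 3.58.1 in R 4.3.3 was fitted to log2(FPKM + 1), with a mean for each group and a variance trend, over the 18 AΦ libraries of 6 groups for the AΦ comparisons and over all 36 libraries for those with monocytes. Fold changes are on the log2(FPKM + 1) scale and understate the change of low genes. Standard errors of fold changes and interactions come from these pooled fits. P-values were adjusted by Benjamini-Hochberg over all 12582 genes of a comparison, with a threshold of 0.05. The scripts were tested on simulated data first. Figures were drawn with Python 3.11.15 and matplotlib 3.10.9.

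Genes named were up to 10 per direction with the largest change among those past the threshold with separate groups, a named gene symbol and a value above 0 in each group, up to 4 genes past the threshold in each of 44 gene lists, up to 5 per direction by the same conditions in the exposure interaction, and a set of markers and mediators given whatever their change. Genes outside this rule are said to be so. A gene of the last set is not reported here. The comparison, the lists and the rule were chosen with earlier results of these data known. Positions are from GENCODE vM21 on the same assembly. Alternatives were another pseudocount (0.1), quantile and median scaling, other filters, the replicate number as a block, the spread of the compared libraries alone, and each library left out.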

Additional observations from a re-analysis of the deposited data

Results flagged for a closer look

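The change from 4-weeks to 32-weeks under PM2.5 differed between TR-AΦ and CD45.2 monocytes in 9 of the genes named with every group above 0 in at least 1 library, by limma's test of the interaction (adjusted p under 0.05, log2 scale, TR-AΦ minus monocytes). The difference was negative for Cd163 (-5.66), Ereg (-4.42), Cxcl10 (-3.75), Ear1 (-3.41), Egr1 (-2.75) and Irf1 (-1.82). Ereg was near 0 in monocytes at both time points and passed the filter on low values through TR-AΦ, so its difference restates the fall in TR-AΦ. For Cd163 and Ear1, which are macrophage markers, the change in TR-AΦ did not pass (-1.58 and 0.75), and the monocytes rose by 4.08 and 4.16. The difference was positive for Col4a2 (1.77), Col4a1 (1.39) and Srebf1 (0.85). Car4, Alppl2, Insl6 and Cdk8 passed the same test with a group listed at 0 in all its libraries, so no size is given for them. Between PM2.5 and FA the change in TR-AΦ differed for Cdk8 alone among the genes tested, through its zeros in all 4-weeks PM2.5 libraries.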

How the results depend on the processing

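The number of genes past the threshold under PM2.5 (147) was 18 with the spread of the compared libraries alone, 55 without the libraries numbered 2 in every group, and 62 to 276 with 1 library left out. The count under FA (102) was 14 with the compared libraries alone and 50 to 148 with 1 library left out. The exposure interaction (1 gene) gave 2, 6 and 1 to 4 genes under the same 3 changes. The monocyte count (794) was 280 to 795 and the cell type interaction (143) 42 to 192 with 1 library left out. Another pseudocount, quantile or median scaling and other filters kept each count they were run for within 1.5 times; under PM2.5 they gave 123 to 199 genes.

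With the replicate number as a block the counts were 419 (PM2.5), 203 (FA), 1234 (monocytes) and 232 (cell type interaction). With the block and only the compared libraries, chosen after seeing the data, they were 5 (PM2.5), 0 (FA), 2 (exposure interaction) and 3 (cell type interaction). The numbers are not shown to pair the mice: deviations of same-numbered 4-weeks and 32-weeks PM2.5 libraries correlated at -0.03, -0.0476 and 0.0646. Same-numbered TR-AΦ and monocyte libraries of PM2.5 mice correlated at -0.0198, 0.0828 and 0.0801 at 4-weeks and at 0.0707, 0.0764 and 0.0351 at 32-weeks. Different-numbered ones ranged from -0.158 to 0.104 at 4-weeks and from -0.0808 to 0.0161 at 32-weeks. Same-numbered PM2.5 and FA libraries of TR-AΦ correlated at -0.0955, -0.0421 and 0.165 at 4-weeks, where different-numbered ones reached 0.276. At 32-weeks they correlated at 0.0801, -0.00379 and 0.134. The labels do not say that a number marks a mouse. With a replicate block of 1 term for each number of a group of mice, chosen after seeing the data, the cell type interaction gave 317 genes, 139 of them among the 143, and 37 in place of 24 of the 147 genes.

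Of 55 named genes past the threshold none changed direction in 870 alternative values, 260 of these values no longer passed, and 30 genes kept the call with each PM2.5 library left out. Reversals were seen for genes that had not passed. Without the libraries numbered 2, Car4 was -0.17, Cxcl9 -0.047 and Ly6c2 0.75. Dropping single PM2.5 libraries gave log2 fold changes from -0.090 to 0.34 for Car4, -0.16 to 0.32 for Cxcl9, -1.26 to 0.21 for Hba-a1, -2.405 to 0.069 for Hbb-bs, -0.84 to 0.50 for Ly6c2 and -0.0073 to 0.94 for Mmp12. The cause was not tested. With FPKM alone the depth that limits low genes is unknown.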
